A study of Mus musculus with 7 samples.

Results

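L2, CR1 and MIR are among the oldest families of interspersed repeats that can still be read in the mouse genome, and their loci were taken here as immobile elements whose RNA comes from host transcription. The members were all loci of the repeat annotation named L2, L2a, L2b, L2c, L3, L3b or X7C_LINE, or with a name that starts with MIR. They made up 200536 of the 3494995 annotated loci (5.74%), with 67909 in the L2 family, 12191 in CR1 (L3, L3b and X7C_LINE) and 120436 in MIR. Their median length was 115 bases, with a range from 11 to 2196. RNA-Seq was done on whole testes at E14.5 of C57BL/6 embryos, with 1 pair of testes per library. The WT group held 3 wild-type libraries and the Mutant group 4 libraries of embryos homozygous for the Glis3zf5 allele, a global null mutation of the zinc finger transcription factor gene Glis3 that is present in every cell of the embryo. The ribosomal RNA was depleted, poly-A selection was omitted and the libraries carried no strand information, so reads of unspliced RNA were kept and reads of a repeat could not be told apart from those of an overlapping gene or its antisense transcript.

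L2 and CR1 are LINEs, elements that once encoded their own reverse transcriptase, and L3 belongs to the CR1 group. MIR is a SINE, a short element without coding capacity that is thought to have been copied by the L2 machinery and shares the end of its sequence with L2. None of these families is known to move in the mouse today. Their copies have diverged so far from each other that reads map uniquely, and most remaining copies are fragments that lie inside genes or between them. Transposable elements that can still move, such as young L1 and IAP copies, are silenced in fetal male germ cells by DNA methylation and the piRNA pathway.

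Some members are part of coding sequence or of a spliced noncoding RNA, and 6 of these are printed here from the GENCODE M21 transcripts (GRCm38, the mm10 build), because the reads over them are counted for the repeat and for the gene at once. Capitals mark the bases that the repeat annotation gives to the element, lower case marks up to 15 neighbouring bases of the same exon, and each is written 5′ to 3′ on the strand of the transcript.
L2 in Rnf17 (chr14:56431542-56431646, + strand): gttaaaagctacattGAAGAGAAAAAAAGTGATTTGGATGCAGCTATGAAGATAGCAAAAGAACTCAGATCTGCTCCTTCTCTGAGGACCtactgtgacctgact
L3 in Mdn1 (chr4:32693540-32693591, + strand): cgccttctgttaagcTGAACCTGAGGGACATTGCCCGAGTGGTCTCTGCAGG
L2 in Myh3 (chr11:67091916-67092054, + strand): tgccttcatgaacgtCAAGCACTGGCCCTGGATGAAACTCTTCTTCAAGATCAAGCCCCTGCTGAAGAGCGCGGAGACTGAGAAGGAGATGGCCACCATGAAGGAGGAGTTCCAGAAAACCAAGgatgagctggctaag
L3b in Sptan1 (chr2:29978460-29978581, + strand): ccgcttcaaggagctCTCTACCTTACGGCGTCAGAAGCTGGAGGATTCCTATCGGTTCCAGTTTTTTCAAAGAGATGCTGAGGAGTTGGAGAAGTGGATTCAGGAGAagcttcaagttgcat
MIR3 in Zmym1 (chr4:127057491-127057573, - strand): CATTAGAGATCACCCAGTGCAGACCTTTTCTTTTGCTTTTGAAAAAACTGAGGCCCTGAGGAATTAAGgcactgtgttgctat
MIR3 in F630028O10Rik (chrX:96240595-96240736, + strand): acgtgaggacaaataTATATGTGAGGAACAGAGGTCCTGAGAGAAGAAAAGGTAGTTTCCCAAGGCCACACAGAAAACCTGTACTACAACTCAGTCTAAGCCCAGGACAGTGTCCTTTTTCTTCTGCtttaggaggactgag
The stretches in Rnf17, Mdn1, Myh3 and Sptan1 lie in annotated coding sequence, whereas those in Zmym1 and F630028O10Rik lie in noncoding transcripts. In Mdn1 37 of the 59 bases of the element are exonic, and in Zmym1 68 of 90.

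The copies that overlap exons were also compared by the short words they share within a family. Read on the element's own strand, the commonest 10-base word of MIR was GCCTCAGTTT, held by 206 of 4239 exonic loci (4.86%) with at least 30 exonic bases, and the next 2 words, CCTCAGTTTC and CTCAGTTTCC, overlap it by a shift of 1 or 2 bases. The same word stood in 0.133% of 2259 exonic L2 loci, in none of 533 exonic CR1 loci, and on the opposite strand of 0.0708% of the MIR loci. The commonest word of L2 was CTCAATAAAT, in 72 loci (3.19%) and in 0.731% of the MIR loci. Among 32851 promoter windows of 300 bases, read on both strands, 0.283% held the first word and 0.0731% the second. The MIR stretches had a median of 102 bases, against the 300 of the windows. These words were chosen as the commonest, so their shares are a description.

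The 7 libraries held from 3454317 to 4670830 reads over all repeat loci, of which members took from 374888 to 482556, or 9.92% to 10.9%. A single locus, an MMVL30-int element over the gene of an RNase P RNA on chromosome 14, took from 2486 to 263183 reads, and without it the member share was 10.5% to 10.9%. Levels are given as CPM, the usual per-library scaling of counts, on library sizes corrected by TMM (trimmed mean of M values), whose factors ran from 0.914 in Mutant replicate 3 to 1.12 in WT replicate 1. The FPKM of Glis3, the mutated gene, was 7.63 and 6.89 in WT replicates 1 and 2 but 2.91 in the library labelled WT replicate 3, which lies within the range of 2.66 to 3.86 of the 4 mutant libraries. The summed FPKM of 5 germ cell markers was 1215 in WT replicate 1, 833 in WT replicate 2, 519 in the library labelled WT replicate 3 and 427 to 565 in the mutant libraries. None of the 10 marker lists, of 4 or 5 genes each, had a gene past the FPKM threshold, and the sums of 5 Sertoli cell markers (835 to 1004 in WT, 986 to 1110 in Mutant) and 5 fetal Leydig cell markers (1596 to 2658 and 2498 to 3073) were at high levels in all libraries. In whole testes fewer cells of a type and less RNA per cell cannot be told apart.

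Most members were silent or nearly so. In 88935 members (44.3%) no library held a read, and 41823 (20.9%) reached the mean of 1 read per library that was needed for testing, against 13.3% of all loci. The tested members had a median of 2.86 reads per library, and 69.1% of them averaged under 5 reads. Levels differed most by where a member lay. Loci that overlap an untranslated region (UTR) of any GENCODE gene were 1.24% of members but held 29.6% of member reads, and 70.6% of them could be tested. Loci in other exons were 2.56% of members with 17.2% of reads, loci in introns 53.4% with 49.2%, and loci outside genes 42.8% with 4.08%. Read density fell from 99.04 CPM per kb of element in UTRs to 27.0 in other exons, 3.52 in introns and 0.363 outside genes (means of 7 libraries). The ranges over the libraries did not overlap between places, since UTR loci lay between 81.3 and 116 CPM per kb and other exonic loci between 24.5 and 29.9, while intronic loci lay between 3.31 and 3.61 and loci outside genes between 0.311 and 0.436. Of the 2487 members in UTRs 76.6% were exonic over their whole length, and of the 5130 in other exons 71.2%.

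**Figure D1:**
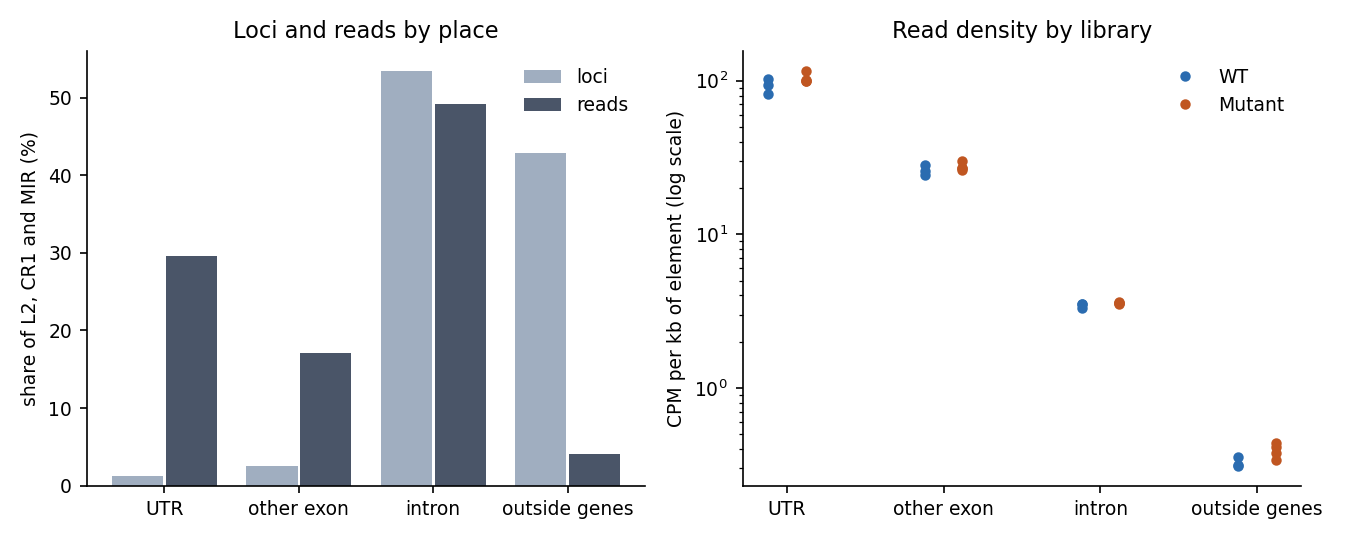
Share of loci and of reads by place (left, %), and CPM per kb of element on a log scale for each of the 3 WT and 4 Mutant libraries (right). Exonic loci were few but held 29.6% (UTR) and 17.2% (other exons) of the reads, and density fell from 99.04 CPM per kb in UTRs to 0.363 outside genes with WT and Mutant libraries close together.

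The members with most reads were pieces of highly transcribed genes. An L2a in a UTR of Tubb5, a beta-tubulin gene, had 1412, 1632 and 1706 CPM in the WT libraries (in order of replicate number, as throughout) and 1699, 1564, 2040 and 1779 in those of the Mutant group. A MIRb in a UTR of Rpl13a, which encodes a ribosomal protein, had 1780 to 3051 CPM in WT and 2261 to 3812 in Mutant. A MIR3 that shares 17 of its 132 bases with a UTR of Ctnnb1, the beta-catenin gene, had 1030 to 1233 CPM in WT and 1202 to 1423 in Mutant. The L3b printed from Sptan1, which encodes a spectrin, had 428 to 682 CPM in WT and 448 to 530 in Mutant. The groups overlapped for each of the 8 most-read members reported here, whose other loci lay in Fkbp4, Ddx17, Bud31 and Atp6v1g1, and edgeR's quasi-likelihood test gave each an adjusted p of 0.98. The MIRc in Fkbp4, an immunophilin gene, had 473 to 533 CPM in WT and 438 to 559 in Mutant although 11 of its 161 bases are exonic.

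In introns, the level of members followed that of the host gene. Across 4886 genes with at least 0.5 kb of intronic members, the CPM per kb of members and the FPKM of the host had a Spearman correlation of 0.819, given as a description over genes that share libraries and are no replicates. The median density rose from 0.177 CPM per kb in hosts under 0.5 FPKM to 0.701 at 0.5 to 2 FPKM, 2.77 at 2 to 10, 5.59 at 10 to 50 and 9.34 over 50 FPKM. Nearness to an exon went with more reads as well. Members 1 to 100 bases from the nearest exon had 6.91 CPM per kb and those at 101 to 300 bases 7.02, against 5.20 at 301 to 1000, 3.11 at 1001 to 5000 and 2.31 beyond 5000 bases (means of 7 libraries). At each of these distances the WT and Mutant libraries overlapped. Tested intronic members lay a median of 2145 bases from an exon and untested ones 3728. Members on the strand of their host had 3.06 to 3.35 CPM per kb over the 7 libraries and members on the opposite strand 3.50 to 3.79, so both orientations were read and the opposite one a little more densely.

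**Figure D2:**
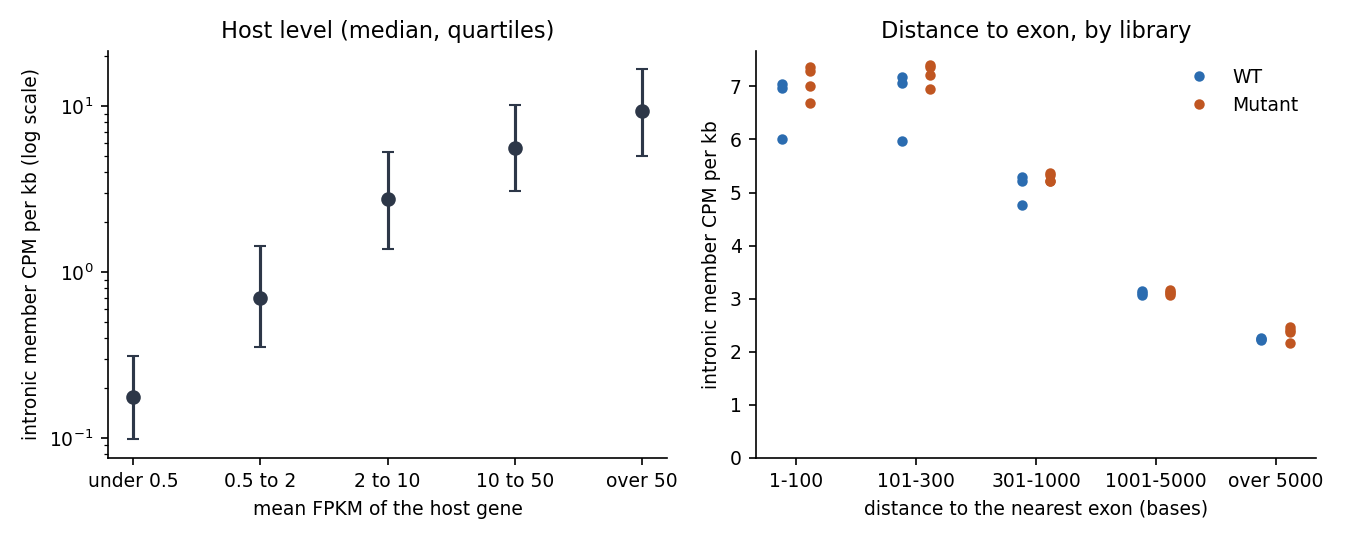
Intronic member CPM per kb against the mean FPKM of the host gene (left, log scale, median with quartiles over hosts) and against the distance to the nearest exon (right, 1 point per library). The median rose from 0.177 to 9.34 with host FPKM, and density fell from 6.91 within 100 bases of an exon to 2.31 beyond 5000, with overlapping groups.

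Outside genes, tested members lay nearer to genes than untested ones. The 2488 tested members with an annotated neighbour lay a median of 2.26 kb from the nearest gene and 67.8% within 5 kb, against 18.2 kb and 20.9% for the untested ones.

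The first comparison asked whether the summed reads of each element name differed between WT and Mutant. None of the 11 member names passed edgeR's test. At an unadjusted p under 0.05 there was 1 of them, L2c, against 145 of all 831 element names (17.4%). All 11 had small positive log2 fold changes, from 0.03 for L3b to 0.17 for X7C_LINE. L2c had 5724, 6471 and 6218 CPM in WT and 6594, 6618, 6865 and 6654 in Mutant (log2 fold change 0.12 ± 0.05 SE, adjusted p = 0.243 by edgeR). Its groups did not overlap, and the same held for MIR, with 13045, 14483 and 13995 CPM in WT and 14781, 14603, 14962 and 14783 in Mutant (0.09 ± 0.05, adjusted p = 0.304). For the other 9 names the groups overlapped. The share of all element names whose groups did not overlap is not given here. L3, the most abundant CR1 name, had 8327 to 9588 CPM in WT and 9088 to 10089 in Mutant (0.10 ± 0.06, adjusted p = 0.370), and MIRb, the most abundant member name, had 17984 to 21184 and 20821 to 22746 (0.12 ± 0.06, adjusted p = 0.352). MIR3 (0.13 ± 0.06) and MIRc (0.12 ± 0.05) had the lowest WT sum in WT replicate 1 as well.

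The other repeats leaned the same way. Among all 831 element names tested, 81.2% had a positive log2 fold change with a median of 0.09, against a median of 0.10 for the 11 member names, and 10 of the 11 lay between the quartiles of all names (0.03 and 0.15). Of the 831 names 1 was called (0.12%), RLTR19, an LTR element and not a member. Under library size alone the median of the tested loci of all kinds fell from 0.02 to -0.05, that of members from 0.06 to -0.01, and the sums of L2, L2b and L3b turned to -0.02, -0.01 and -0.04. Summed over families, L2 had 32383 ± 1685 CPM in WT and 34295 ± 1018 in Mutant, CR1 11256 ± 855 and 11962 ± 528, and MIR 55070 ± 3808 and 59577 ± 1867 (SD, n = 3 and n = 4). The log2 ratios of these means were 0.08, 0.09 and 0.11, and in each family the groups overlapped.

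**Figure D3:**
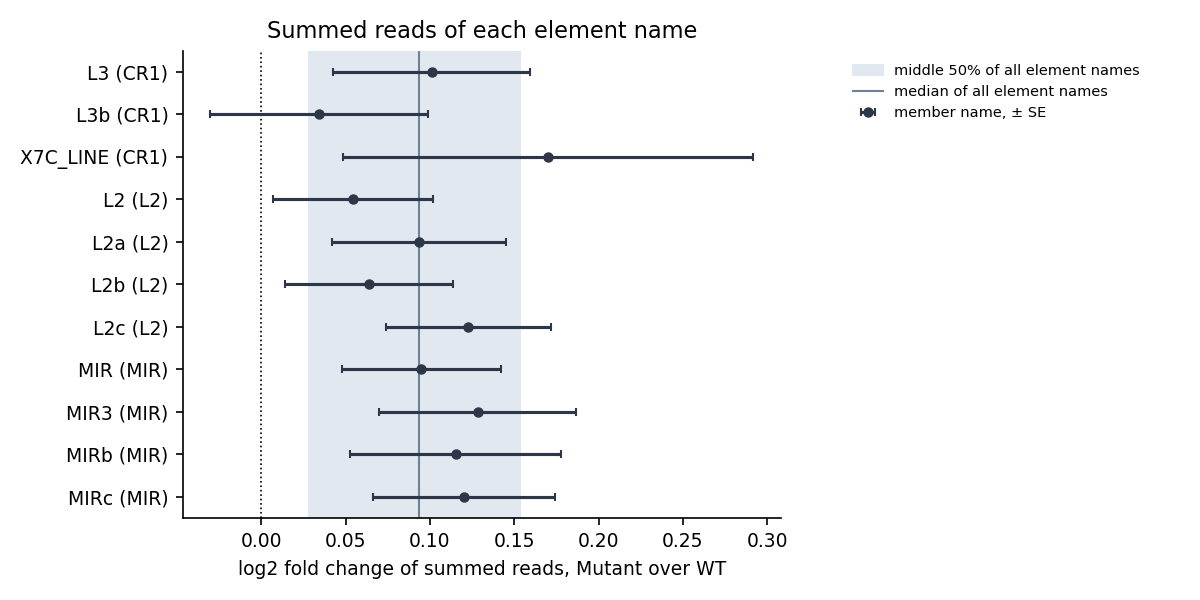
Log2 fold change of the summed reads of each of the 11 member names (points, ± SE, Mutant over WT), with the middle 50% of all 831 element names as a grey band and their median as a line. All 11 points were positive and 10 lay inside the band.

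The sums by place differed in how far they leaned. Members in introns summed to 47385, 50514 and 50001 CPM in WT and 51580, 51414, 50570 and 51098 in Mutant, so the groups did not overlap, although the log2 ratio of the means was 0.05. Members in exons gave 45626 ± 4421 CPM in WT and 50130 ± 3582 in Mutant (SD, n = 3 and n = 4, log2 ratio 0.14), with overlap. Members outside genes had 3611, 4102 and 3634 CPM in WT and 4391, 3938, 4763 and 5065 in Mutant (log2 ratio 0.26), and Mutant replicate 2 lay below WT replicate 2. The other repeat loci outside genes had the same lean, with 76902 ± 5462 CPM in WT and 92995 ± 8550 in Mutant (log2 ratio 0.27, overlapping groups). Without the 1% of loci with most reads, an alternative chosen after seeing the data, the ratio was 0.41 for members outside genes, still with overlap, and 0.51 for the other loci outside genes, where the groups no longer overlapped. In introns the other loci had 474757 ± 9407 CPM in WT and 481282 ± 1026 in Mutant (log2 ratio 0.02), with overlap. No test was run on these sums.

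At single loci, 22 of the 41823 tested members passed an adjusted p of 0.1, 12 higher and 10 lower in Mutant. The 12 that were higher are 0.0287% of tested members, against 0.0213% of all 464695 tested loci (99 loci), and the 10 that were lower are 0.0239%, against 0.0594% of all loci (276). At an unadjusted p under 0.05 there were 1251 members higher and 830 lower, and among all loci 11635 and 10381. The groups did not overlap, with Mutant above, for 1447 members (3.46%, against 3.12% of all loci) and, with Mutant below, for 1130 (2.70%, against 2.84%). The median log2 fold change was 0.06 for members and 0.02 for all loci. Other old or short repeats gave shares of called loci of the same order, with 0.0697% for L1 elements of the L1M names other than L1Md, 0.0191% for MLT1 LTRs and 0.0464% for B1 SINEs, and none of these differences was tested. DESeq2 called 1 member, the MIRc at Hao2, which was higher, and none that was lower (316 and 192 at an unadjusted p under 0.05). At Tdrd9, Rnf17, Mdn1, Serpina5 and Myh3 edgeR's adjusted p ran from 1.41e-06 to 0.00104, whereas that of DESeq2 was 0.99998. The groups overlapped at each of these loci, so edgeR's p and SE there are no measure of the spread between libraries. Of the 22 called members 14 had groups that did not overlap. Each of the 22 calls was lost without at least 1 of the 7 libraries, and the calls at Tdrd9, Rnf17 and Mdn1 were lost without WT replicate 2 alone, that at Serpina5 without the library labelled WT replicate 3 alone and that at P2ry6 without Mutant replicate 1 alone. Without the library labelled WT replicate 3, 15 members were called higher and 28 lower (0.0665% of those tested), against 112 higher and 505 lower (0.108%) over all loci. Of the 22, 7 lay in UTRs, 6 in other exons, 8 in introns and 1 outside genes, against 71, 44, 109 and 151 of the 375 called over all loci. In UTRs 0.399% of tested members and 0.433% of all tested loci were called. These shares were 0.235% and 0.165% in other exons, 0.0228% and 0.0291% in introns, and 0.040% and 0.317% outside genes.

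**Figure D4:**
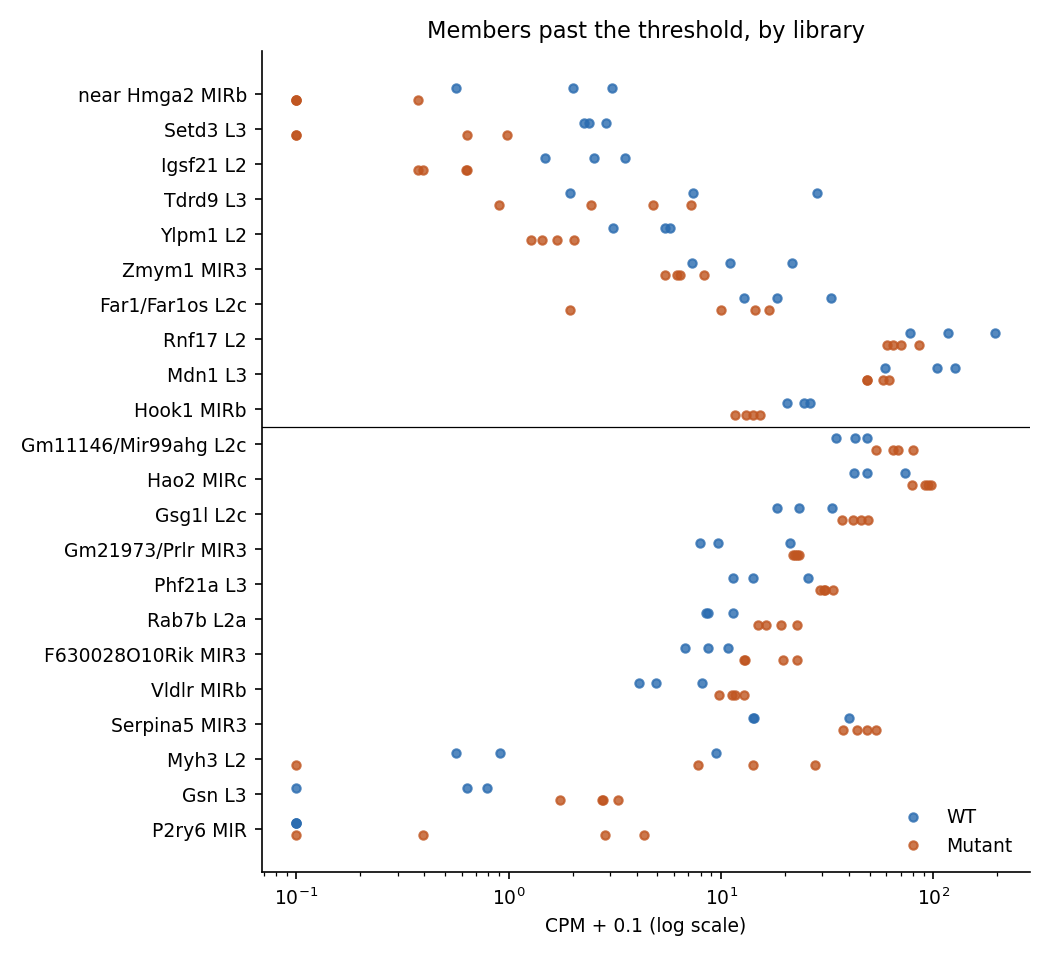
CPM + 0.1 on a log scale for the 22 members past the threshold in each WT and Mutant library, lower in Mutant above the line and higher below it. Groups were apart for 14 members, while those in Tdrd9, Rnf17, Mdn1 and Myh3 were among the 8 that overlapped.

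Among the members that were lower, the largest counts came from coding exons of genes that are active in germ cells or in ribosome assembly. The L2 printed from Rnf17, a gene of germ cell granules with Tudor domains, had 117, 194 and 77.8 CPM in WT replicates 1 to 3 and 70.0, 60.2, 85.1 and 64.1 in Mutant (log2 fold change -0.89 ± 0.16 SE, edgeR adjusted p = 8.74e-05). The library labelled WT replicate 3 lay inside the mutant range, as it did for Glis3 and the germ cell markers. Without WT replicate 2, which had the highest value, this call was lost. The FPKM of Rnf17 itself was 26.2, 36.8 and 14.1 in WT and 11.2 to 14.5 in Mutant (log2 fold change -0.92 ± 0.27, limma adjusted p = 0.190).

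The L3 printed from Mdn1, an AAA ATPase of the large ribosomal subunit's assembly, had 104, 126 and 58.9 CPM in WT and 57.8, 48.7, 61.3 and 48.3 in Mutant (-0.83 ± 0.16, adjusted p = 0.00104). Here too only WT replicates 1 and 2 stood above the mutant libraries. Its host had an FPKM of 47.3, 43.6 and 23.0 in WT and 17.8 to 21.7 in Mutant (-0.86 ± 0.22, adjusted p = 0.174). The L3 in a UTR of Tdrd9 (chr12:112039287-112039344), an RNA helicase of the piRNA pathway, had 7.25, 28.2 and 1.85 CPM in WT and 7.13, 4.68, 2.35 and 0.801 in Mutant (-1.67 ± 0.27, adjusted p = 2.74e-06). The groups overlapped widely, and WT replicate 2 alone was above every mutant library by a margin. Without that library the calls at Tdrd9 and Mdn1 were lost as well. The FPKM of Tdrd9 was 4.11, 14.1 and 0.584 in WT and 0.339 to 2.96 in Mutant.

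The MIR3 printed from a noncoding transcript of Zmym1, a zinc finger gene, had 10.9, 21.5 and 7.16 CPM in WT and 5.34 to 8.22 in Mutant (-1.001 ± 0.24, adjusted p = 0.0487), with overlap. The FPKM of Zmym1 was 29.8 to 37.9 in WT and 26.1 to 27.4 in Mutant, without overlap (-0.32 ± 0.08, adjusted p = 0.174). In an intron of Hook1 (chr4:96016751-96016938), which encodes a microtubule-linked endosomal protein, a MIRb 5 bases from an exon had 24.4, 26.1 and 20.3 CPM in WT and 12.9, 15.1, 14.1 and 11.5 in Mutant (-0.82 ± 0.20, adjusted p = 0.0709). Every mutant library was lower than every WT library, and the same was true of the FPKM of Hook1, with 23.8 to 30.6 in WT and 18.4 to 21.9 in Mutant (-0.37 ± 0.10, adjusted p = 0.180). An L2c in an intron shared by Far1 and its antisense gene Far1os had 12.7 to 32.8 CPM in WT and 1.85, 9.90, 16.7 and 14.4 in Mutant (-0.98 ± 0.21, adjusted p = 0.0078). Its groups overlapped, and the call was lost without Mutant replicate 1 and also without WT replicate 2.

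The other 4 lower members had few reads. A MIRb on chromosome 10 (chr10:120538045-120538233), 61.6 kb from its nearest gene Hmga2, was read 10, 11 and 2 times in WT and 0, 1, 0 and 0 times in Mutant (-4.15 ± 0.92, adjusted p = 0.0139). It was the only called member outside genes. An L3 in an intron of Setd3, a histidine methyltransferase gene, was read 12, 8 and 12 times in WT and 0, 0, 3 and 2 times in Mutant (-2.70 ± 0.63, adjusted p = 0.0323). An L2 in an intron of Igsf21 was read 18, 9 and 6 times against 2, 1, 1 and 2 (-2.49 ± 0.60, adjusted p = 0.0553), and a 672-base L2 in an intron of Ylpm1 28, 21 and 13 times against 6, 7, 4 and 5 (-1.61 ± 0.39, adjusted p = 0.0494). In all of these 4 the groups did not overlap. The FPKM of Setd3 (37.4 to 47.1 in WT, 35.9 to 41.2 in Mutant) and Ylpm1 (7.55 to 9.14 and 7.49 to 8.65) overlapped. That of Igsf21 was 2.42, 0.536 and 0.294 in WT and 0.135 to 0.274 in Mutant, without overlap (-0.96 ± 0.39, adjusted p = 0.269).

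Among the members that were higher, 6 lay in UTRs. The MIRc at Hao2 (chr3:98877041-98877123), a peroxisomal hydroxyacid oxidase gene, has 12 of its 83 bases in an exon. It had 42.4, 73.7 and 48.7 CPM in WT and 94.3, 97.1, 79.5 and 91.0 in Mutant (0.73 ± 0.17, adjusted p = 0.0231 by edgeR and 0.0986 by DESeq2). All mutant libraries were above all WT libraries, as they were for the FPKM of Hao2, with 25.004 to 34.4 in WT and 41.6 to 51.1 in Mutant (0.66 ± 0.12, adjusted p = 0.133). An L2c in a UTR of Gsg1l, which encodes an AMPA receptor partner, had 18.3, 33.4 and 23.1 CPM in WT and 45.4, 37.1, 49.3 and 41.9 in Mutant (0.81 ± 0.18, adjusted p = 0.0169). The FPKM of Gsg1l was 7.26 to 11.5 in WT and 12.8 to 13.6 in Mutant (0.51 ± 0.13, adjusted p = 0.173).

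An L3 that shares 13 of its 83 bases with a UTR of Phf21a, a histone reader gene, had 11.3 to 25.6 CPM in WT and 29.0 to 33.6 in Mutant (0.89 ± 0.19, adjusted p = 0.0103). An L2a in a UTR of Rab7b, a small GTPase of the endosomal pathway, had 8.40 to 11.3 and 14.8 to 22.7 CPM (0.96 ± 0.22, adjusted p = 0.0233). The MIR3 printed from the antisense RNA F630028O10Rik on chromosome X had 6.68 to 10.6 and 12.7 to 22.6 CPM (0.97 ± 0.22, adjusted p = 0.026). An L3 in an intron of Gsn, the gelsolin gene, was read 0, 2 and 3 times in WT and 12, 6, 9 and 10 times in Mutant (2.64 ± 0.61, adjusted p = 0.0282). The FPKM of Gsn was 56.3 to 63.2 in WT and 65.6 to 76.6 in Mutant, also without overlap (0.21 ± 0.07, adjusted p = 0.220).

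The members just inside the threshold were a MIR3 in a UTR of Prlr, the prolactin receptor gene (7.85 to 20.98 CPM in WT and 21.7 to 23.2 in Mutant, adjusted p = 0.0726), a MIRb in a UTR of Vldlr, a lipoprotein receptor gene (4.01 to 8.07 and 9.63 to 12.7, adjusted p = 0.0759), and an L2c in an intron shared by Mir99ahg and Gm11146 (34.7 to 48.4 and 53.7 to 80.3, adjusted p = 0.0998). Just outside it were a MIR3 in an intron of Rnf44 (adjusted p = 0.104), a MIRb in an intron of the antisense gene Gm14661 (0.105) and a MIR in an intron shared by Hif1a and Gm15283 (0.108). The last had no read in WT and 5, 2, 2 and 7 in Mutant. With the WT group set to 3 reads over its libraries the Mutant mean was 4.79-fold higher, and 3.63-fold without Mutant replicate 4.

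A further 3 higher members had groups that overlapped and are named although the rule for single loci did not reach them. A MIR3 in a UTR of Serpina5, a serine protease inhibitor gene, had 14.1, 39.8 and 14.1 CPM in WT and 37.6 to 53.3 in Mutant (1.03 ± 0.18, adjusted p = 9.07e-05). The L2 printed from Myh3, an embryonic skeletal muscle myosin, had 9.35, 0.807 and 0.462 CPM in WT and 14.0, 7.70, 0 and 27.5 in Mutant (1.67 ± 0.26, adjusted p = 1.41e-06). These p-values are from edgeR, and DESeq2 gave the loci at Serpina5 and Myh3 an adjusted p of 0.99998 each. The summed FPKM of 5 skeletal muscle markers was 37.7, 4.53 and 5.70 in WT and 20.7, 17.2, 5.80 and 54.5 in Mutant, and the 4 libraries at 17.2 or more had 7.70 CPM or more over this L2, while the 3 at 4.53 to 5.80 had 0 to 0.807. Myh3 is itself among these 5 markers and this L2 lies in its coding sequence, so the sum and the locus share reads. The part of muscle RNA in the call was not tested. A MIR in an intron of P2ry6, a nucleotide receptor gene, had no read in WT and 16, 10, 1 and 0 reads in Mutant (adjusted p = 0.000742 by edgeR). With the WT group set to 3 reads over its libraries the Mutant mean was 8.05-fold higher, and 4.49-fold without Mutant replicate 1. This ratio leaves out the spread of the Mutant group. It rests on Mutant replicates 1 and 2, while replicate 4 had no read, as in WT.

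None of the host genes of the called members passed the FPKM test, in which 1 of 13988 genes did (0.00715%), and most of their log2 fold changes were smaller in size than those of the loci. A tested host was found for 20 of the 22, and in all 20 the log2 fold change of its FPKM had the sign of that of the locus. For 18 of the 20 it was smaller in size than that of the locus, and over the 20 it ranged in size from 0.04 at Ylpm1 to 1.49 at Tdrd9. The 8 intronic loci were all among those with the smaller host change. The loci were chosen for their size, and for the 12 exonic loci some of the same reads enter both values, so this is a description. The share of equal signs over all tested loci with a tested host is not given here. The intronic loci at Hook1 and Igsf21 lie 5 and 66 bases from an exon. They may share reads with it as well if reads that only touch an element were counted. The signs of the FPKM at Ylpm1 and P2ry6 each turned when 1 library was left out. Without the library labelled WT replicate 3, 162 genes rose and 560 fell in that test, and among the hosts named here Rnf17, Mdn1, Zmym1 and Sptan1 and Glis3 itself passed as lower and Hao2 as higher. Leaving out WT replicate 2 made Serpina5 pass as higher.

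**Figure D5:**
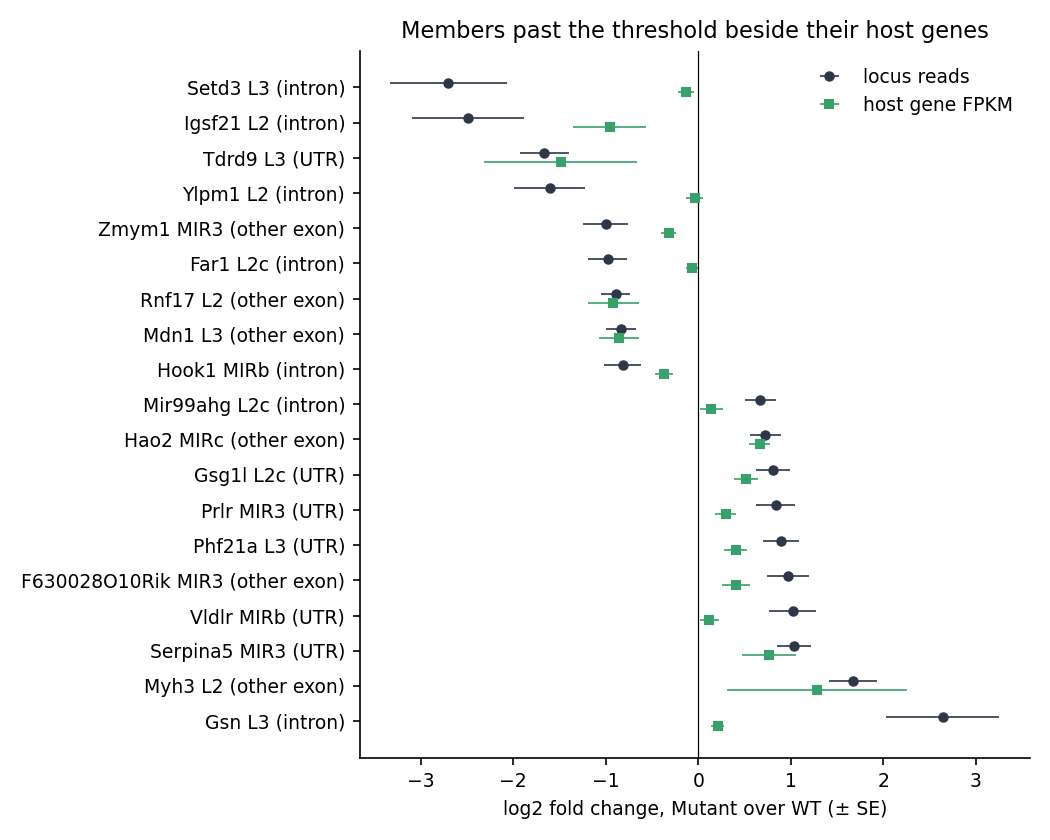
Log2 fold changes (Mutant over WT, ± SE) of 19 called members (circles) and of the FPKM of their host genes (squares), leaving out P2ry6, whose WT counts were all 0. The signs were the same in all 19, and the host values lay nearer 0 in 17.

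Members that lie in introns of the same gene were also summed, to see whether host transcription shows as a change that its members share. Of 3767 host genes with a mean sum of at least 10 reads, 3 were called (0.0796%), against 37 of 11109 (0.333%) when all other repeat loci of the introns were summed. The median log2 fold change of the 3767 sums was 0.04, and at an unadjusted p under 0.05 there were 196 higher and 106 lower. Among the 11109 sums of other loci 747 were higher and 530 lower at that threshold, with a median of 0.005. The member sums and the other sums were not matched for depth. Kcnip4, a potassium channel partner gene of great length with 119 members, had 70, 105 and 53 member reads in WT and 140, 114, 87 and 180 in Mutant (13.4, 28.2 and 12.2 CPM against 37.0, 31.4, 25.5 and 48.1). Its log2 fold change was 1.02 ± 0.21 (adjusted p = 0.0446 by edgeR), and the groups overlapped. The other repeats of the same introns had 71.2, 132 and 63.7 CPM in WT and 195, 168, 143 and 228 in Mutant without overlap (1.06, adjusted p = 0.0414). The FPKM of Kcnip4, which counts exons, was 0.828 to 0.911 in WT and 0.809 to 1.01 in Mutant (0.03 ± 0.12, adjusted p = 0.916).

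The member sum of Hook1 was 26.7, 27.2 and 22.4 CPM in WT and 13.5, 16.5, 15.3 and 13.9 in Mutant (-0.78 ± 0.16, adjusted p = 0.0446). Nearly all of it is the MIRb beside the exon, with 128 of 140 reads in WT replicate 1, and the other repeats of its introns gave -0.34 (adjusted p = 0.277) with no overlap. Gm14661, an antisense RNA gene on chromosome X with 51 members, had 15.5, 16.4 and 5.54 CPM in WT and 7.39, 4.68, 4.99 and 3.74 in Mutant (-1.25 ± 0.28, adjusted p = 0.0953). Its groups overlapped through the library labelled WT replicate 3, and its other repeats gave -1.31 (adjusted p = 0.161). DESeq2 called none of the 3 sums. Without the library labelled WT replicate 3, 1 sum was called higher and 9 lower.

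Glis3 itself holds 31 members, of which 21 were tested. Their log2 fold changes ran from -3.34 to 1.67 with a median of -0.57, 16 of the 21 were negative and none was called (smallest adjusted p = 0.439). Summed over the introns, the members had 29.0, 22.3 and 14.5 CPM in WT and 15.8, 15.7, 10.6 and 8.81 in Mutant (-0.80 ± 0.21, adjusted p = 0.278). The library labelled WT replicate 3 was below 2 of the mutant libraries. The other repeats of the introns of Glis3 had 144, 121 and 90.9 CPM in WT and 52.6 to 79.8 in Mutant, without overlap (-0.84, adjusted p = 0.0323). The study describes the mutant allele as a deletion in an exon and parts of its neighbouring introns. Whether any of these loci lies in the deleted part was not tested.

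Members inside genes of the pathways that silence mobile elements were few. The 20 genes of the piRNA pathway held 48 members, 14 of them tested, and 1 was called lower, the L3 at Tdrd9, where 0.0594% of all loci were. Of the 14 log2 fold changes 7 were negative, and their median was -0.15. The FPKM of 18 of these genes could be tested, all 18 had negative log2 fold changes with a median of -1.09, and none passed. The 17 silencing factors held 45 members, 31 tested and none called (median -0.11), with summed levels of 67.4 to 76.4 CPM in WT and 73.4 to 76.5 in Mutant. The 18 germ cell genes held 20 members, 13 tested and none called (median -0.02), while the FPKM of the genes had a median of -0.74 with 15 of 18 negative. In the 10 Sertoli cell genes 34 of 39 members were tested and none was called (median 0.11).

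The 10 fetal Leydig cell genes held 62 members, of which 46 were tested with none called and 7 negative log2 fold changes. The median was 0.50, against 0.02 over all loci. In 5 of the 46 all mutant libraries were above all WT libraries, set beside 3.12% of all tested loci. The members lie in 8 of the 10 genes, and loci of the same gene are not independent of each other. The difference from all loci was not tested. The summed level was 131, 177 and 157 CPM in WT and 195, 173, 232 and 255 in Mutant, and Mutant replicate 2 lay below WT replicate 2. The FPKM of the 10 genes had a median log2 fold change of 0.40, none negative and none past the threshold.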

How the data were processed

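Per the labels and the study's methods, the authors aligned 125-base read pairs to mm10 with TopHat 2.0.12. They deposited whole-number counts of uniquely mapped reads per RepeatMasker locus, made with HTSeq-count and not normalized, and FPKM per RefSeq gene, made with Cuffquant and Cuffnorm. The counting mode was not given in the sources used here. Reads that only touch an element are counted for it if the default mode was used.

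Loci that averaged 1 read or more were tested across all loci with edgeR 4.0.16 (quasi-likelihood, TMM, two-sided, R 4.3.3) at a Benjamini-Hochberg adjusted p of 0.1, the depth filter and threshold the study used with DESeq2. Sums per element name and per host gene (mean of at least 10 reads) used the effective library sizes of that test. Host sums held intronic loci inside 1 gene only. Genes were tested with limma 3.58.1 on log2(FPKM + 0.5), with a mean of at least 0.5 FPKM and a threshold of 0.05. Adjusted p-values are over all features of each test. Counts are reads, not molecules. Loci were placed with bedtools 2.31.1 on GENCODE M21 (GRCm38), with UTR before other exon before intron. Tests were checked on simulated data. DESeq2 1.42.0, other scalings, filters and thresholds, and each library left out were alternatives.

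Every member past the threshold is named, or the 10 with the largest change in non-overlapping groups where more than 10 went 1 way, with the 3 nearest the threshold on each side and the 3 most read per family, of which 1 is not reported here. The members, lists and tests were chosen with earlier results of these data known. Replicates are separate embryos. Same-numbered libraries did not deviate together (correlations -0.08 to 0.03), so numbers were not used as pairs.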

Additional observations from a re-analysis of the deposited data

Results flagged for a closer look

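Of 53 values checked in the 4 mutant libraries, 3 had a library that stood apart from the rest by Dixon's ratio (gap to the nearest library over the whole range, read against its 95% critical value for 4 samples). Chance alone flags about 1 in 20 such groups. The sum of MIRb had a ratio of 0.942, with 22746 CPM in Mutant replicate 3 against 20821 to 20931 in the others. The sum of L2 had a ratio of 0.855, with 9897 CPM in the same library against 9194 to 9296. Mutant replicate 3 had the lowest TMM factor of all libraries (0.914), and the part of scaling in these values was not tested. The MIRb locus on chromosome 10 that is nearest to Hmga2 had a ratio of 1, since Mutant replicate 2 held its single read (0.275 CPM) and the other 3 held none.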

How the results depend on the processing

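Against 12 members called higher and 10 lower, DESeq2 called 1 and 0, a mean of at least 10 reads 0 and 0 of 6182 tested (266 and 190 at an unadjusted p under 0.05), and library size alone raised the lower count to 16. Over all loci DESeq2 called 4 higher and 11 lower, and a mean of at least 10 reads 0 and 17. No filter left 5 lower. Leaving out each library gave 4 to 21 higher and 0 to 28 lower, with 21 and 0 without WT replicate 2 (116 and 77 over all loci) and 15 and 28 without the library labelled WT replicate 3 (112 and 505 over all loci). For element names no alternative other than a left-out library called a member, and leaving out each library called 0 to 6 as higher, the 6 without WT replicate 2, where 117 of all 831 names were higher. For host sums (1 higher, 2 lower) DESeq2 called 0 and 0, a mean sum of at least 50 reads left 1 lower, a threshold of 0.05 left 1 lower, and leaving out each library gave 0 to 3 higher and 0 to 9 lower, the 9 without the library labelled WT replicate 3. For the FPKM of genes holding a named member (0 called) leaving out each library gave 0 to 1 higher and 0 to 5 lower. The family ratios moved when only loci outside genes were summed, to 0.28 for L2, 0.23 for CR1, 0.26 for MIR and 0.26 for all members. Without the 1% of loci with most reads, chosen after seeing the data, the ratio of the other loci outside genes moved from 0.27 to 0.51 and that of members outside genes was 0.41. The causes were not tested.

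With the replicate number as a block, 5 members were called higher and 3 lower, and 3 host sums were higher. The numbers did not pair the samples, with correlations of -0.08 to 0.03 over 3 pairs.

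Signs turned only in values that passed no test. Under library size alone the element names L2, L2b and L3b were at -0.018, -0.0071 and -0.036, and X7C_LINE was at -0.0197 over loci that overlap no exon. The MIRc at Fkbp4 was at 0.011 with the replicate block and between -0.088 and 0.024 with 1 library left out. With 1 library left out the ranges were -0.014 to 0.37 for the MIRb at Rpl13a, -0.011 to 0.089 for L3b, -0.0041 to 0.064 for the FPKM of Kcnip4, -0.011 to 0.23 for that of P2ry6 and -0.096 to 0.034 for that of Ylpm1. Of the alternatives for single named loci, names and genes, 691 kept direction and side of the threshold, 154 lost a call, 19 gained one and 13 turned sign. With a median of 2.86 reads per tested member, depth limits which single loci can be called, and a locus not called is not shown to be unchanged.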
